A study of Mus musculus with 12 samples.

Results

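Ileum and synovium of healthy wild-type (WT) mice were compared to describe what distinguishes the transcriptome of the gut wall from that of the joint lining in the absence of disease. The 6 WT libraries of the 12 in the series were used, 3 from ileum and 3 from ankle synovium. The libraries were taken by their labelled genotype and tissue. The comparison itself and the 47 gene lists used below were chosen with earlier results of these data known. The WT mice were littermates of TNFdARE mice, a strain with a deletion in the AU-rich element of the Tnf gene that is used as a model of ileitis and arthritis. They carried no other allele and received no agent that the labels record. The 6 TNFdARE libraries entered only a test of whether the tissue difference was altered in that strain. Sex and age are not in the labels, nor whether samples were pooled or both tissues of a replicate number came from 1 mouse. The labels call the samples biological replicates and say no more on their origin, so the p-values measure the spread between these libraries.

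The ileum is the last segment of the small intestine. Its lining is a single layer of enterocytes, which digest and absorb, mixed with secretory cells that make mucus, antimicrobial peptides or hormones, all renewed from stem cells in the crypts. The ileum in particular recovers bile acids. The synovium is a thin mesenchymal tissue around the joint cavity, in which lining fibroblasts secrete lubricin and hyaluronan and sit beside macrophages, over a sublining of fibroblasts, vessels and fat.

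Poly-A RNA was sequenced with a stranded kit. The WT libraries held 14289975 to 15700665 counts, and 1 count was worth 0.0637 to 0.0700 counts per 1000000 (CPM) before scaling. The CPM values below use library sizes scaled by trimmed mean of M values (TMM). The 10 most abundant genes took 7.33% to 8.27% of the counts in ileum and 10.7% to 14.3% in synovium. No pair of libraries within a tissue agreed within sampling noise, with a chi-square per gene of 11.2 to 18.3 among ileum libraries and 32.4 to 45.7 among synovium libraries. In both tissues replicates 1 and 2 had counts of Y-linked genes and almost none of Xist, the RNA that silences an X chromosome, and replicate 3 had the reverse. Xist was at 0.202, 0.287 and 1481 CPM in the ileum libraries and 0.669, 0.317 and 937 CPM in the synovium libraries, so the apparent sex of the mice was spread alike over both tissues.

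Some libraries stood apart from the others of their tissue. Ileum replicate 2 had Car1, a carbonic anhydrase known from large intestine, at 1418 CPM against 11.8 and 1.72 CPM in replicates 1 and 3, and less RNA of Paneth cells and of MHC class II than both. Synovium replicate 1 had the largest sum of skeletal muscle markers, 33191 CPM against 16287 and 18876 CPM. Synovium replicate 2 had the largest sum of markers of marrow granulocyte precursors, 5328 CPM against 1504 and 2530.0 CPM. Synovium replicate 3 had the largest sum of Schwann cell markers, 1867 CPM against 779 and 1046 CPM. These values are given again beside the genes they move with.

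Most genes differed between the tissues. With edgeR's quasi-likelihood test and Benjamini-Hochberg adjustment, 12265 of 16287 genes tested passed an adjusted p of 0.05, which is 75.3%. Of these, 6025 were higher in ileum (37.0% of the genes tested) and 6240 were higher in synovium (38.3%). The CPM of the tissues did not overlap for 79.7% of the genes tested, with ileum above for 39.3% and synovium above for 40.4%. A call alone therefore says little here, and a difference of at least 8-fold was used to describe genes restricted to a tissue: 1299 genes (7.98%) were at least 8-fold higher in ileum and 1390 genes (8.53%) in synovium. Protein-coding genes made up 1128 and 1252 of them. Counts in the lists below are to be read against these shares, 37.0% and 38.3%, or 7.98% and 8.53% at 8-fold. The median log2 fold change of ileum over synovium was -0.01 over all genes tested, and the median absolute value was 0.91.

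The balance between the directions depended on the scaling. With factors from a list of housekeeping genes in place of TMM, 4717 genes were higher in ileum and 7575 in synovium, 38.4% of the calls against 49.1%, and with library sizes alone the numbers were 5108 and 6982. Those scalings moved the median of all genes to -0.25 and -0.16. Differences under about that size are not given a direction below unless the scalings are named.

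**Figure D1:**
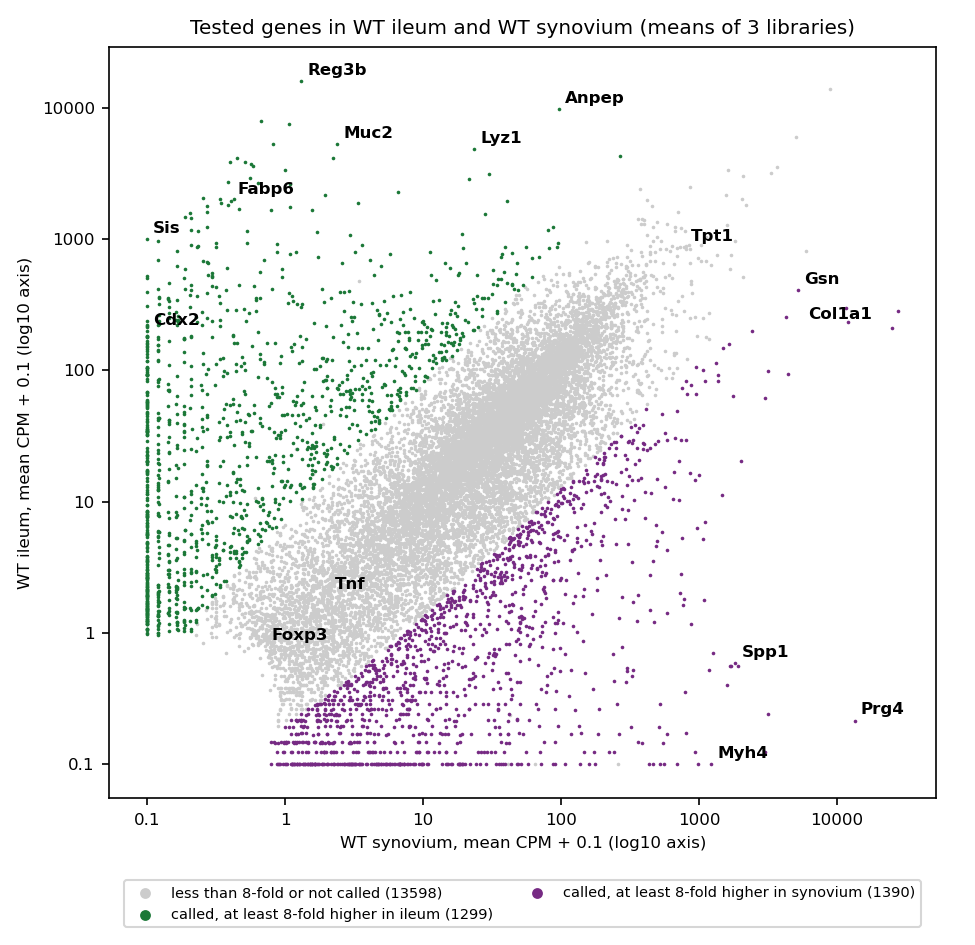
Mean CPM of each tested gene in WT synovium (horizontal, log10 axis, CPM + 0.1) against WT ileum (vertical, log10 axis, CPM + 0.1), each a mean of 3 libraries. Green points are the 1299 genes called and at least 8-fold higher in ileum, purple points the 1390 called and at least 8-fold higher in synovium, and grey points the other genes tested. Reg3b, Anpep and Muc2 lie at the top, Prg4 and Col1a1 at the right, and Tnf and Foxp3 near the diagonal at low CPM.

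A set of genes was detected in 1 tissue only. In 242 genes, 199 of them protein-coding, every ileum library had at least 10 counts and every synovium library had 0. The reverse held for 179 genes, 141 of them protein-coding. A count of 0 need not mean that a transcript was missing, since mt-Nd4l, mt-Co2, mt-Atp6 and mt-Atp8, 4 of the 13 mitochondrially encoded respiratory chain genes that cells use throughout the body, were at 0 in all 6 libraries. Sis, which encodes sucrase-isomaltase of the brush border (chr3:72888557-72967863, minus strand, GRCm38), had 822, 1110.3 and 1058 CPM in the ileum libraries and no count in synovium. With 0 replaced by a floor of 3 counts over the group, Sis was at least 13836-fold higher in ileum. On the same floor Slc13a1, a sulphate transporter, was at least 7299-fold higher, Ugt2b34, a glucuronosyltransferase, at least 6989.6-fold higher, and Cdx2, the homeobox factor that sets intestinal identity, at least 2794-fold higher. In the other direction Myh4, a myosin heavy chain of fast muscle fibres (chr11:67238029-67260446, plus strand), had 1049, 1586 and 1017 CPM in synovium and no count in ileum, at least 19619-fold higher in synovium. Col10a1, the collagen of hypertrophic cartilage, was at least 15912-fold higher in synovium, and Col2a1, the main collagen of cartilage, at least 11241-fold higher. These bounds cover counting error only.

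The largest contrast on a gene of the joint lining was that of Prg4, which encodes lubricin (chr1:150449412-150466165, minus strand). It had 12899, 12579.8 and 14701 CPM in the synovium libraries and 0.0674, 0 and 0.275 CPM in the ileum libraries, the latter from 5 counts in all (log2 fold change -16.72, SE 0.42, adjusted p = 1.37e-08). The libraries of each tissue lay close together, and Prg4 alone took 1.42% of the synovium counts. In ileum the largest share of the counts went to Reg3b, a C-type lectin that binds bacteria, with 1.52%.

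**Figure D2:**
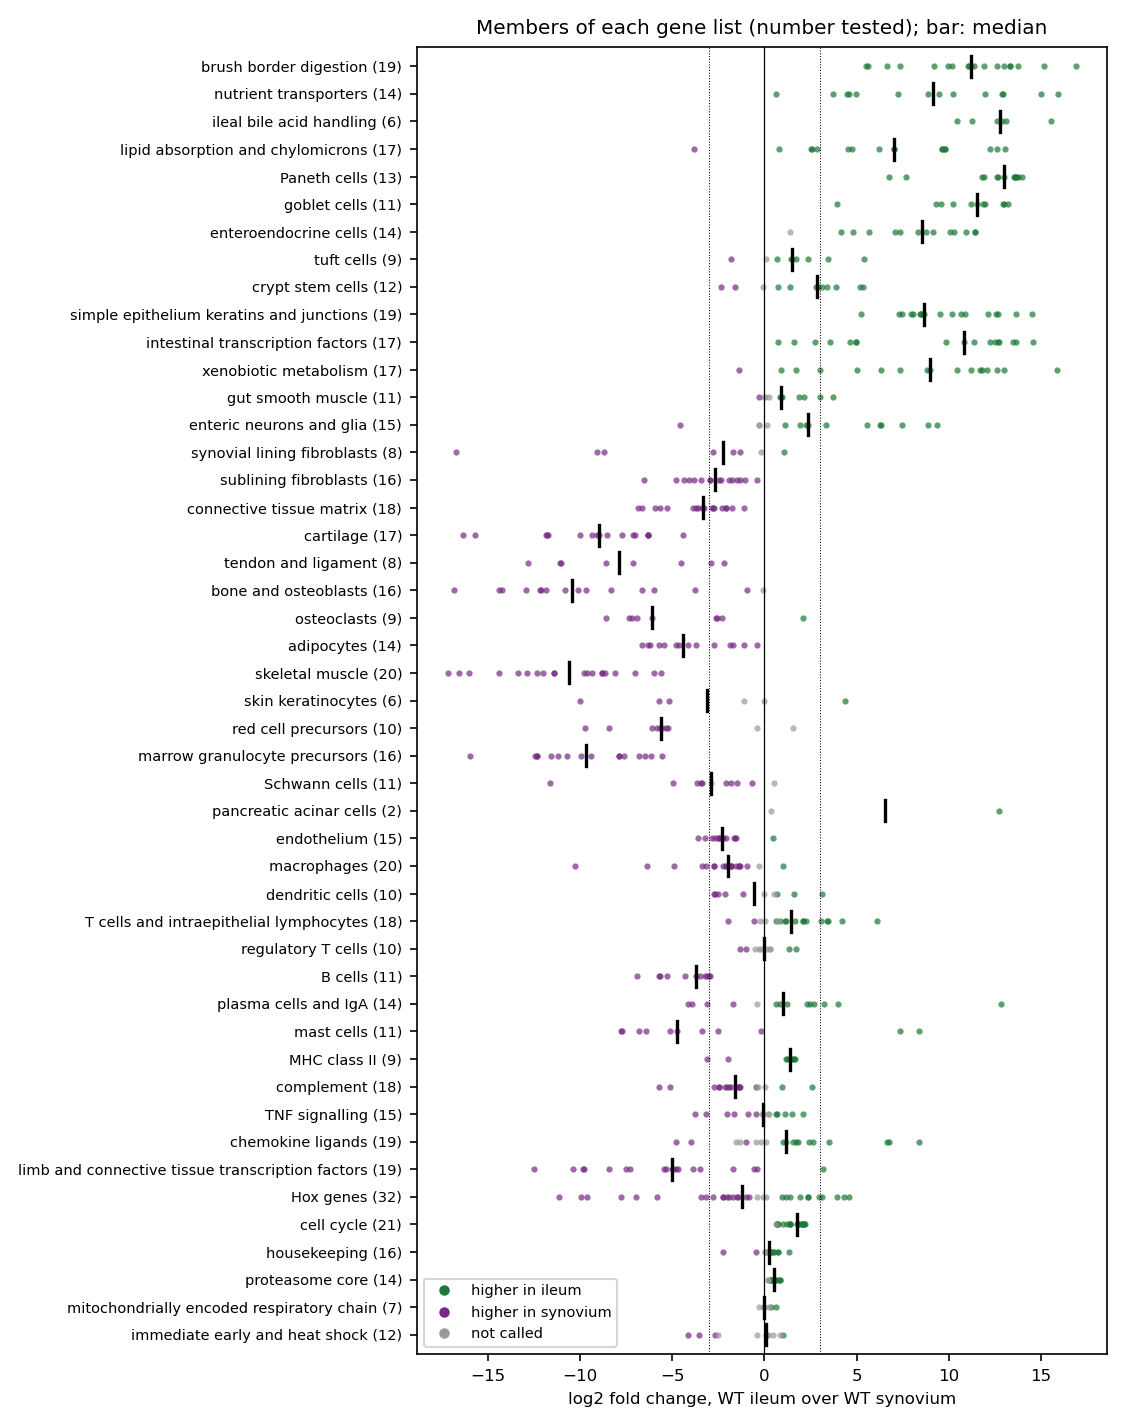
log2 fold change of WT ileum over WT synovium (horizontal) for the tested members of 47 gene lists, 1 list per row with the number tested. Green points are genes higher in ileum, purple points genes higher in synovium, grey points genes not called, black bars the list medians, and dotted lines mark 8-fold. The lists of brush border, Paneth cell and bile acid genes lie wholly on the ileum side, and those of cartilage, tendon, adipocytes and skeletal muscle wholly on the synovium side.

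Genes of the brush border, the microvillus surface of enterocytes, were higher in ileum without exception among those tested. Of 22 listed genes 19 passed the filter on low counts, and all 19 were higher in ileum, where 37.0% of all genes tested were, and at least 8-fold so, where 7.98% were. Their median log2 fold change was 11.22, or 11.08 with genes at 0 set at their bound. Anpep, aminopeptidase N, had 9865, 9275 and 10203 CPM in ileum and 89.4, 97.5 and 101 CPM in synovium (log2 fold change 6.67, SE 0.13, adjusted p = 4.42e-09). The synovium values of Anpep were the highest of the list there, and they still lay far below every ileum library. Mep1a, the alpha subunit of the protease meprin, had 1058, 1243 and 1242 CPM against 0.0669, 0.127 and 0.127 CPM (log2 fold change 13.32, SE 0.19, adjusted p = 1.65e-09), and Myo1a, the brush border myosin, 1660.0, 1689 and 1649 CPM against 0.87, 0.507 and 0.697 CPM (log2 fold change 11.22, SE 0.18, adjusted p = 2.06e-09). The members spread from Dpp4 (5.48) and Enpep (5.59), peptidases that vessels also carry, to Treh, a trehalase, the alkaline phosphatase Alpi and Sis, which had no count in synovium. Lct, the lactase of suckling animals, had 21 counts in ileum against 30 in synovium and was not tested, and Tmprss15, enteropeptidase of the duodenum, had no count in any library.

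Transporters of nutrients gave the same picture at several sites of entry. All 14 tested of 16 were higher in ileum, 13 at least 8-fold, with a median log2 fold change of 9.15. Slc5a1, which takes up glucose with sodium, had 957, 906 and 1057 CPM in ileum and 1 count in all of synovium, a ratio of 40676-fold (exact 95% interval 7300.1 to 1606649.8). Slc34a2, a phosphate transporter, had 946, 916 and 851 CPM against 0.0669, 0.0634 and 0.19 CPM (log2 fold change 12.93, SE 0.21, adjusted p = 2.22e-09). Slc3a1, the heavy chain of the cystine and basic amino acid transporter, had 452, 439.6 and 450.0 CPM against 0.468, 0.19 and 0.444 CPM (log2 fold change 10.22, SE 0.18, adjusted p = 2.94e-09). Slc46a1, the folate carrier, differed least, with 11.7, 9.68 and 14 CPM against 7.02, 9.89 and 6.21 CPM and a log2 fold change of 0.61 (SE 0.21, adjusted p = 0.0302). The groups overlapped, since ileum replicate 2 lay below synovium replicate 2, and the call was lost with library sizes alone (0.46, adjusted p = 0.0794), with housekeeping factors (0.36, adjusted p = 0.155) and without ileum replicate 1 or 3 or synovium replicate 1 or 3 (adjusted p = 0.0671, 0.107, 0.0674 and 0.0999). For every other gene given below with a fold change past the test on the WT libraries with TMM scaling, the libraries of the tissues did not overlap.

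Bile acid recovery, the task that sets the ileum apart from the rest of the small intestine, was represented by 6 tested genes of 7, all at least 8-fold higher in ileum (median log2 fold change 12.76, or 12.53 with zeros at their bound). Slc10a2, the apical bile acid transporter (chr8:5083219-5105351, minus strand), had 363, 378 and 443 CPM in ileum and no count in synovium, at least 5492-fold higher in ileum. Fabp6, the bile acid binding protein of the enterocyte cytosol, had 1871, 1548 and 2494 CPM against 0.602, 0.0634 and 0.253 CPM (log2 fold change 12.63, SE 0.47, adjusted p = 4.70e-07). Slc51a, a subunit of the basolateral exporter, had 599, 582 and 701 CPM in ileum and 1 count in each synovium library, a ratio of 8737-fold (exact 95% interval 2989 to 42368). Nr1h4, the bile acid receptor FXR, had 205, 224 and 233 CPM against 0.134, 0.127 and 0.19 CPM (log2 fold change 10.44, SE 0.14, adjusted p = 1.60e-09). Fgf15, the hormone that FXR induces to lower bile acid synthesis in liver, had 14.3, 8.24 and 38.5 CPM in ileum, highest in replicate 3, and no count in synovium (at least 285-fold higher in ileum).

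Genes of fat absorption divided between enterocyte genes and a fatty acid transporter of other cells. Of 17 genes, all tested, 16 were higher in ileum, 12 of them at least 8-fold, and 1 was higher in synovium (median log2 fold change 7.01). Apoa1, the main apolipoprotein of high-density lipoprotein, had 2751, 2438 and 2808 CPM against 0.602, 0.697 and 0.317 CPM (log2 fold change 12.25, SE 0.23, adjusted p = 3.57e-09). Mttp, which loads lipid onto apolipoprotein B, had 595, 596 and 675 CPM against 4.55, 4.63 and 5.32 CPM (log2 fold change 7.01, SE 0.12, adjusted p = 2.65e-09). Cd36, a fatty acid transporter also of fat cells and capillaries, was the exception, with 28.1, 25.4 and 22.4 CPM in ileum and 359, 295 and 404 CPM in synovium (log2 fold change -3.80, SE 0.15, adjusted p = 1.15e-07).

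Most genes named here as known from the proximal small intestine were at low counts in the ileum libraries, where Fabp6 was abundant. The genes named for this were chosen after their values were seen, and no list of them was tested. As CPM per kilobase of exon (RPKM, mean ± SD, n = 3), Fabp6 stood at 4115 ± 1004 in ileum, Fabp2, the fatty acid binding protein of the whole small intestine, at 1190.0 ± 82.2, and Fabp1, its proximal counterpart, at 2.46 ± 0.515. Fabp1 counts numbered 59 over the ileum libraries against 2 in synovium, a ratio of 28.4-fold (exact 95% interval 7.53 to 240.3). Slc2a2, the basolateral glucose transporter of jejunum, had 0.27, 0.143 and 1.44 CPM in ileum, and Gata4, a factor of proximal intestine, 1.08, 0.932 and 0.344 CPM, and neither passed the filter on low counts. Slc2a5, the fructose transporter of proximal intestine, was higher in ileum, with 8.56, 9.82 and 10.9 CPM against 0.401, 1.46 and 0.38 CPM in synovium (log2 fold change 3.69, SE 0.44, adjusted p = 0.000114). Gata5 had 99.1, 86.7 and 103 CPM and no count in synovium.

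Paneth cells, which guard the crypt base with antimicrobial peptides, gave the list with the highest median, 13.01, or 12.62 with zeros at their bound. All 13 tested of 16 listed genes were at least 8-fold higher in ileum. Reg3b (chr6:78370657-78373466, plus strand) had 18869, 14403 and 14873 CPM against 1.4, 0.887 and 1.33 CPM (log2 fold change 13.69, SE 0.27, adjusted p = 4.31e-09). Defa24, an alpha-defensin, had 4187, 2939 and 5311 CPM against 0.87, 0 and 0.19 CPM (log2 fold change 13.52, SE 0.74, adjusted p = 8.36e-06), and Lyz1, the Paneth cell lysozyme, 5136, 3698 and 5727 CPM against 23.1, 17 and 29.8 CPM (log2 fold change 7.70, SE 0.31, adjusted p = 2.94e-07). Ileum replicate 2 was the lowest of the 3 ileum libraries for 13 of the 14 members detected in ileum, among them Mmp7, the protease that activates defensins, at 313, 207 and 311 CPM. Per length the most abundant ileum genes, mitochondrial genes left out, were Reg3b with 14053 ± 2149 RPKM (mean ± SD, n = 3), Defa24 with 9894 ± 2832, Defa30 with 5069.9 ± 1377, the immunoglobulin kappa constant region Igkc with 4514 ± 1026 and Fabp6. The alpha-defensins are near-identical copies, so the values of single members depend on how the authors' counting assigned shared reads.

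Goblet cell genes followed the same course, with all 11 tested of 11 at least 8-fold higher in ileum and a median log2 fold change of 11.54. Muc2, the gel-forming mucin, had 5230.4, 5650.4 and 5099.8 CPM against 3.55, 1.71 and 1.65 CPM (log2 fold change 11.18, SE 0.34, adjusted p = 5.38e-08). Zg16, a lectin of the mucus that binds Gram-positive bacteria, had 2591, 2901 and 2676 CPM against 0.669, 0.0634 and 0.127 CPM (log2 fold change 13.20, SE 0.46, adjusted p = 2.55e-07). Atoh1, the factor that commits progenitors to the secretory fate, had 50.8, 46.1 and 41.8 CPM in ileum and 3 counts in all of synovium, a ratio of 644-fold (exact 95% interval 220.0 to 3125). Unlike the Paneth cell genes, Muc2 and Zg16 were highest in replicate 2 among the 3 ileum libraries.

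Hormone-producing cells were seen through 14 tested genes of 16, of which 13 were higher in ileum, each at least 8-fold, and 1 did not pass the test. The median log2 fold change was 8.52, and 6.51 with the 5 genes at 0 in synovium set at their bound. Gcg, the precursor of glucagon-like peptides, had 85.4, 82.3 and 75.5 CPM in ileum and 1 count in synovium, a ratio of 3387-fold (exact 95% interval 607 to 133805). Pyy, the satiety hormone of distal gut, had 23.1, 21.4 and 22.7 CPM in ileum and no count in synovium, at least 312-fold higher in ileum. Nts, neurotensin, had 43, 42.9 and 49.7 CPM against 1.07, 0.697 and 0.887 CPM (log2 fold change 5.67, SE 0.16, adjusted p = 2.13e-08). Some hormones known from the upper gut were low. Cck had 2.76, 1.94 and 3.23 CPM, and Gip a single count over the 3 ileum libraries. Sct, secretin, also known from the upper gut, was not low. It had 1378 counts over the ileum libraries and 1 in synovium, a ratio of 1328.5-fold (exact 95% interval 238.0 to 52508.6). Ghrl had 1.35, 0.932 and 0.894 CPM against 0.535, 0.634 and 0.0634 CPM in synovium (adjusted p = 0.0631). Ghrl was the member that did not pass.

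Tuft and stem cell lists were less one-sided. Of 9 tested tuft cell genes, 7 were higher in ileum (37.0% of all genes tested), 1 in synovium (38.3%) and 1 did not pass, with a median of 1.49. Trpm5, the cation channel of taste signalling, had 16.3, 13.9 and 14.2 CPM against 0.468, 0.19 and 0.38 CPM (log2 fold change 5.39, SE 0.26, adjusted p = 3.86e-07). Dclk1, often used as a tuft cell marker, had 23.2, 21.4 and 23.7 CPM against 23.7, 18.4 and 21.3 CPM and did not pass (adjusted p = 0.427). Among 12 crypt stem cell genes, 9 were higher in ileum and 2 in synovium, with a median of 2.85. Lgr5, the Wnt-amplifying receptor that marks crypt base stem cells, had 45.7, 38.4 and 49.5 CPM against 4.28, 4.12 and 4.5 CPM (log2 fold change 3.37, SE 0.13, adjusted p = 1.03e-07), and Smoc2, a matricellular protein, had 64.9, 67.7 and 83.5 CPM against 210.3, 229 and 224 CPM, higher in synovium (log2 fold change -1.62, SE 0.10, adjusted p = 2.18e-06).

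Keratins and junction proteins of simple epithelium gave another list in which all tested genes, 19 of 19, were at least 8-fold higher in ileum (median log2 fold change 8.64). Krt8, a keratin of simple epithelia, had 4162, 3874 and 3701 CPM against 0.401, 0.317 and 0.19 CPM (log2 fold change 13.63, SE 0.21, adjusted p = 2.06e-09). Cdh17, the liver-intestine cadherin, had 1689.5, 1697 and 1682 CPM against 0.401, 0.19 and 0.507 CPM (log2 fold change 12.14, SE 0.22, adjusted p = 2.95e-09). Epcam, the epithelial adhesion molecule, was measurable in every synovium library, with 6.96, 5.83 and 6.72 CPM there and 2278, 2386 and 2266 CPM in ileum (log2 fold change 8.47, SE 0.13, adjusted p = 2.06e-09).

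The transcription factors that specify intestine were likewise on the ileum side, 17 of 17 tested of 18, with 14 at least 8-fold higher and a median of 10.84, or 9.85 with zeros at their bound. Hnf4a, a nuclear receptor that drives enterocyte genes, had 1239.8, 1249 and 1218 CPM against 0.201, 0.127 and 0.19 CPM (log2 fold change 12.74, SE 0.15, adjusted p = 1.60e-09). Elf3, an epithelial ETS factor, had 542, 511 and 520.4 CPM against 0.268, 0.254 and 0.0634 CPM (log2 fold change 11.34, SE 0.21, adjusted p = 3.37e-09). Nr1i2, the pregnane X receptor, had 98.7, 114 and 105 CPM in ileum and no count in synovium, at least 1469.8-fold higher in ileum. Enzymes of foreign-compound metabolism, several of which this receptor induces, were higher in ileum in 16 of 17 tested genes, with Gstm1, a glutathione transferase at 38.8, 52.5 and 41.5 CPM against 112, 117 and 115 CPM, higher in synovium (log2 fold change -1.37, SE 0.11, adjusted p = 9.14e-06).

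The promoter stretches of 2 ileum genes are shown because each holds letters that match the motif of a factor on the list above. They are the 150 bases before the start annotated by RefSeq on GRCm38.p6, in the direction of the gene, with matches in capitals. In Alpi (chr1:87101607-87101756, minus strand), the intestinal alkaline phosphatase, the capitals are CAAAGTCCA, searched as the HNF4 motif. In Slc26a3 (chr12:31438069-31438218, plus strand), the chloride exchanger, the first capitals match the HNF1 motif, searched as GTTAAT followed by any base and ATT, and the second TATAAA.
Alpi: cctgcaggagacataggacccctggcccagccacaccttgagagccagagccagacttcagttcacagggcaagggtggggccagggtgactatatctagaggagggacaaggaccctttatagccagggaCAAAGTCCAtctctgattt
Slc26a3: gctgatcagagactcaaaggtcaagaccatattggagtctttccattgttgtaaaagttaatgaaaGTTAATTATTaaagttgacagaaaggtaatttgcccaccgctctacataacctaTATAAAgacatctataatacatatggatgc
On both strands of all 32851 windows in the table, the HNF4 letters were found in 0.475%, the HNF1 letters in 0.399% and TATAAA in 13.6%. A window was available for 67% of the genes at least 8-fold higher in ileum and for 70.7% of those in synovium, too few to compare motif shares between these sets, and a match is a description of the letters only.

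The gut wall beneath the epithelium was represented by smooth muscle and nerve. Of 11 smooth muscle genes 7 were higher in ileum (37.0% of all genes tested), 1 in synovium (38.3%) and 3 did not pass, with a median of 0.90. Actg2, the enteric smooth muscle actin, had 411, 469.7 and 463 CPM against 32, 32.3 and 38 CPM (log2 fold change 3.72, SE 0.11, adjusted p = 2.20e-08), and Myh11, the smooth muscle myosin heavy chain, 1249, 1433 and 1581 CPM against 359, 408 and 388 CPM (log2 fold change 1.88, SE 0.11, adjusted p = 1.41e-06). Des, desmin of all muscle types, had 442, 488 and 564 CPM against 787, 304 and 383 CPM and did not pass (adjusted p = 0.964), with synovium replicate 1 above all ileum libraries. Among 15 genes of enteric neurons and glia, 11 were higher in ileum and 1 in synovium, with a median of 2.35. Vip, a relaxing neuropeptide, had 23.9, 23.9 and 22.6 CPM in ileum and 2 counts in synovium, a ratio of 489.7-fold (exact 95% interval 135 to 4049). S100b, a glial calcium-binding protein, was the 1 on the synovium side, with 2.09, 2.08 and 1.72 CPM against 43.5, 41.3 and 54.8 CPM (log2 fold change -4.56, SE 0.16, adjusted p = 6.87e-08).

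On the synovium side, genes of the lining fibroblasts were not uniformly restricted. Of 8 tested, 6 were higher in synovium (38.3% of all genes tested), 3 of them at least 8-fold (8.53% of all genes tested), 1 was higher in ileum and 1 did not pass, with a median log2 fold change of -2.25. Besides Prg4, Has1, a hyaluronan synthase, had 52, 36.9 and 35.6 CPM in synovium and 3 counts in ileum, a ratio of 664-fold (exact 95% interval 227 to 3224). Col22a1, a collagen of tissue junctions, had 479.8, 527 and 408 CPM against 1.21, 1.36 and 0.757 CPM in ileum (log2 fold change -8.72, SE 0.20, adjusted p = 8.78e-09). Htra1, a secreted protease, had 228, 212 and 217 CPM against 31, 30.6 and 32.7 CPM (log2 fold change -2.80, SE 0.07, adjusted p = 1.09e-08). Clic5, used as a lining marker, did not pass, with 589, 437 and 466 CPM in synovium and 408, 429.7 and 453 CPM in ileum (adjusted p = 0.147), and Tspan15, a tetraspanin, was higher in ileum (1.08, adjusted p = 6.00e-06).

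All 16 genes of sublining fibroblasts were higher in synovium, 6 of them at least 8-fold, with a median of -2.70. Cxcl12, a chemokine of stromal cells, had 1647, 1940.3 and 1680.3 CPM in synovium against 64.9, 62.2 and 64.9 CPM in ileum (log2 fold change -4.78, SE 0.11, adjusted p = 8.00e-09). Dcn, the proteoglycan decorin, had 4477, 4066 and 4271 CPM against 259.7, 259 and 247 CPM (log2 fold change -4.07, SE 0.10, adjusted p = 1.21e-08). Both genes were also well measured in ileum, which has a fibroblast layer of its own. Fbln1, fibulin 1, differed least, with 102, 94.6 and 98.5 CPM against 84.4, 71.7 and 71.3 CPM (log2 fold change -0.38, SE 0.08, adjusted p = 0.00362), and its call was lost in the fit of all 12 libraries (adjusted p = 0.193). In bulk tissue, fewer cells of a type and less RNA per cell cannot be told apart.

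The matrix list was also wholly on the synovium side, 18 of 18, with 10 at least 8-fold higher and a median of -3.35. Col1a1 (chr11:94936224-94953042, plus strand) had 26721, 33332 and 14812 CPM in synovium against 227, 227 and 182 CPM in ileum (log2 fold change -6.88, SE 0.36, adjusted p = 1.31e-06), and it took 2.61% of the synovium counts, with 2.92% for Col1a2, the other chain of type I collagen. Synovium replicate 3 was the lowest and replicate 2 the highest for both chains of type I collagen. The matrix list as a whole summed to 96859, 115141 and 68505 CPM in the synovium libraries, and the list of bone and osteoblast genes had the same order, with 6149, 7188 and 4909 CPM. The part of bone in the matrix levels was not tested. Fn1, fibronectin, had 11658, 10187 and 13933 CPM against 222, 232 and 248 CPM (log2 fold change -5.67, SE 0.17, adjusted p = 2.55e-08), and here replicate 3 was the highest. Per length the most abundant synovium genes, mitochondrial genes left out, were Col1a1 with 3802 ± 1430.1 RPKM (mean ± SD, n = 3), Prg4 with 3129 ± 267, Sparc, a collagen-binding glycoprotein, with 3045 ± 946, Col1a2 with 2243 ± 835 and the skeletal muscle actin Acta1 with 1947 ± 1024. The order of Col1a1, Prg4 and Sparc lies within their SD.

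The synovium libraries held RNA of the tissues next to the joint lining, and the amount differed between libraries. Skeletal muscle markers were all, 20 of 20, at least 8-fold higher in synovium (median -10.58), and their sum was 16287 to 33191 CPM there against 49.3 to 118 CPM in ileum. Atp2a1, the calcium pump of fast fibres, had 3985, 2812 and 2667 CPM in synovium and 0.135, 0.215 and 0.0688 CPM in ileum (log2 fold change -14.39, SE 0.33, adjusted p = 8.78e-09). Acta1 had 4795, 1915 and 2261 CPM against 72.2, 20.4 and 91.4 CPM (log2 fold change -5.61, SE 0.78, adjusted p = 0.00135). Replicate 1 was the highest of the 3 for both, and for Myh2 and Myh7, myosins of oxidative fibres, at 3106, 549.8 and 1107 CPM and 515, 53.6 and 258 CPM. The fast myosin Myh4 was instead highest in replicate 2.

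The promoter stretches of 3 muscle genes are printed next since these genes define the muscle signal and hold letters of muscle factor motifs. They are cut and credited as above, at chr11:67237662-67237811, plus strand for Myh4, at chr8:123894776-123894925, minus strand for Acta1 and at chr2:67445852-67446001, plus strand for Xirp2, a protein of muscle attachment sites. In Myh4 and Acta1 the first capitals match the CArG box, bound by serum response factor, and the second TATAAA, and in Xirp2 the capitals match the MEF2 motif.
Myh4: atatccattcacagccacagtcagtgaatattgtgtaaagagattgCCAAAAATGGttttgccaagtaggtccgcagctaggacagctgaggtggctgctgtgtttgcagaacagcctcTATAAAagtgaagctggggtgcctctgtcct
Acta1: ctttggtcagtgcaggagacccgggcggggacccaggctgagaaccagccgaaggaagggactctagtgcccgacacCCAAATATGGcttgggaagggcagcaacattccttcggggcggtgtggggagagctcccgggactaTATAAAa
Xirp2: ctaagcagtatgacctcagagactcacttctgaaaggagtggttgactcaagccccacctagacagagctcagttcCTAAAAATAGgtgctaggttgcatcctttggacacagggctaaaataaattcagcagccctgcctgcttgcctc
The CArG box was found in 1.63% and the MEF2 motif in 1.86% of all windows on both strands. Xirp2 had no count in ileum and 1028, 119.5 and 245 CPM in synovium, at least 7307-fold higher there, with replicate 1 above the others. Its call was lost without synovium replicate 2 or 3 (adjusted p = 0.0718 and 0.0746), with limma-voom (adjusted p = 0.1) and without the filter on low counts (adjusted p = 0.0635).

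Cartilage, bone and tendon genes formed further groups restricted to synovium. All 17 tested cartilage genes of 18 were at least 8-fold higher in synovium, with a median of -8.95, or -7.71 with zeros at their bound. Comp, an oligomeric matrix protein of cartilage and tendon, had 1805, 1549.9 and 1696 CPM against 0.674, 0.43 and 0.275 CPM (log2 fold change -11.81, SE 0.23, adjusted p = 4.00e-09), with the 3 synovium libraries close together. Col2a1 was at 436, 1227 and 421 CPM, with replicate 2 above the others, and Acan, the large proteoglycan of cartilage, at 421, 538 and 354 CPM, both with no count in ileum. Of 16 bone genes 15 were higher in synovium, 14 at least 8-fold (median -10.46, or -9.89 with zeros at their bound). Spp1, osteopontin, had 1919, 1988 and 1571 CPM against 0.472, 0.789 and 0.206 CPM (log2 fold change -11.85, SE 0.32, adjusted p = 2.41e-08), and Ibsp, a sialoprotein of bone, 851, 954 and 799 CPM against 0.944, 0.789 and 1.44 CPM (log2 fold change -9.66, SE 0.21, adjusted p = 5.39e-09). Sost, made by osteocytes embedded in bone, had 118, 178 and 140.2 CPM in synovium and 1 count in ileum, a ratio of 7042-fold (exact 95% interval 1264 to 278193). Tendon genes were higher in synovium in 8 of 8, 6 at least 8-fold (median -7.86), with Angptl7 at 383, 384 and 396 CPM and 2 counts in ileum, a ratio of 9360.1-fold (exact 95% interval 2591 to 77295).

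Osteoclasts, the bone-resorbing cells, gave 8 of 9 tested genes higher in synovium, 5 of them at least 8-fold. Ctsk, the collagen-degrading cathepsin K, had 659.9, 848 and 765 CPM against 4.18, 5.16 and 6.05 CPM (log2 fold change -7.20, SE 0.18, adjusted p = 1.09e-08). Tnfrsf11a, the receptor RANK through which osteoclasts form, was higher in ileum, with 88.7, 81 and 92.1 CPM against 21.1, 22.4 and 18.5 CPM (log2 fold change 2.08, SE 0.10, adjusted p = 3.14e-07). Its ligand Tnfsf11 had 12.8, 11.2 and 14.3 CPM in synovium against 1.42, 0.215 and 1.1 CPM in ileum (log2 fold change -3.78, SE 0.43, adjusted p = 0.000107), and the decoy receptor Tnfrsf11b 91.2, 69 and 75.8 CPM against 10.7, 8.24 and 7.7 CPM (log2 fold change -3.15, SE 0.16, adjusted p = 5.17e-07). Receptor and ligand thus differed in opposite directions between the tissues.

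Adipocyte genes were more even between the synovium libraries than muscle genes. All 14 adipocyte genes were higher in synovium, 9 at least 8-fold, with a median of -4.39, and their sum was 4815 to 6201 CPM in synovium against 223 to 252 CPM in ileum. Car3, a carbonic anhydrase abundant in fat and muscle, had 2396, 1541 and 2084 CPM against 24.7, 18 and 18.1 CPM (log2 fold change -6.63, SE 0.24, adjusted p = 1.20e-07). Adipoq, the hormone adiponectin, had 165, 175 and 252 CPM against 5.19, 4.59 and 3.85 CPM (log2 fold change -5.44, SE 0.22, adjusted p = 4.56e-07), and Lpl, lipoprotein lipase, 686, 701 and 849 CPM against 32.5, 30.9 and 25.1 CPM (log2 fold change -4.66, SE 0.15, adjusted p = 3.30e-08).

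Genes of blood cell precursors differed widely between the synovium libraries. All 16 genes of marrow granulocyte precursors were at least 8-fold higher in synovium, with a median of -9.70, or -7.89 with zeros at their bound. S100a9, a calprotectin subunit of neutrophils and their precursors, had 399, 1304 and 677 CPM against 0.539, 0.0717 and 0.138 CPM (log2 fold change -11.56, SE 0.84, adjusted p = 6.08e-05). Mpo, the myeloperoxidase made at the promyelocyte stage in marrow, had 72.7, 327 and 123 CPM and 1 count in ileum, a ratio of 8491-fold (exact 95% interval 1524 to 335429.6). Replicate 2 was the highest and replicate 1 the lowest of the synovium libraries for all 16 genes. Replicate 2 was also the highest for all 11 red cell genes: Hbb-bs, a beta-globin, had 143, 378 and 68.3 CPM in synovium and 4.11, 7.53 and 3.1 CPM in ileum (log2 fold change -5.32, SE 0.90, adjusted p = 0.00424). Of 10 red cell genes tested 8 were higher in synovium and 2 did not pass. The globin copies are near-identical, so their single values are uncertain.

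Genes of Schwann cells were mostly higher in synovium, and those of skin were mixed. Of 11 Schwann cell genes 9 were higher in synovium and 2 did not pass (median -2.89). The summed CPM of the list overlapped, with 779 to 1867 CPM in synovium against 730 to 857 CPM in ileum. Ncmap, a protein of non-compact myelin, had 16.6, 14.5 and 26.2 CPM in synovium against 0.944, 0.43 and 0.413 CPM in ileum (log2 fold change -4.97, SE 0.37, adjusted p = 7.14e-06). Replicate 3 was the highest synovium library for 10 of the 11 genes. Krt5, Krt14, Flg and Ivl, which define its keratinocytes, had no count in any synovium library, and of the 6 skin genes tested 3 were higher in synovium, 1 in ileum and 2 did not pass. Sbsn, suprabasin, had 99.4, 85.5 and 77.8 CPM there against 2.02, 2.87 and 2.34 CPM in ileum (log2 fold change -5.18, SE 0.16, adjusted p = 2.83e-08). Krtdap, a protein of differentiating keratinocytes, had 8.09, 9.13 and 8.56 CPM in synovium and no count in ileum, and Trp63, the p63 factor of stratified epithelium, had 3.28, 2.28 and 2.98 CPM against 0, 0.0717 and 0.0688 CPM. The skin list was thus at 0 for its defining keratins but not for all of its genes. Of the pancreatic genes, the trypsins Prss1, Prss2 and Try4, the lipase Pnlip and the amylase Amy2a5 had no count in any library. The colipase gene Clps had 54.1, 44.7 and 71.9 CPM in ileum and none in synovium, at least 794-fold higher. The part of these neighbouring tissues in the other differences was not tested.

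**Figure D3:**
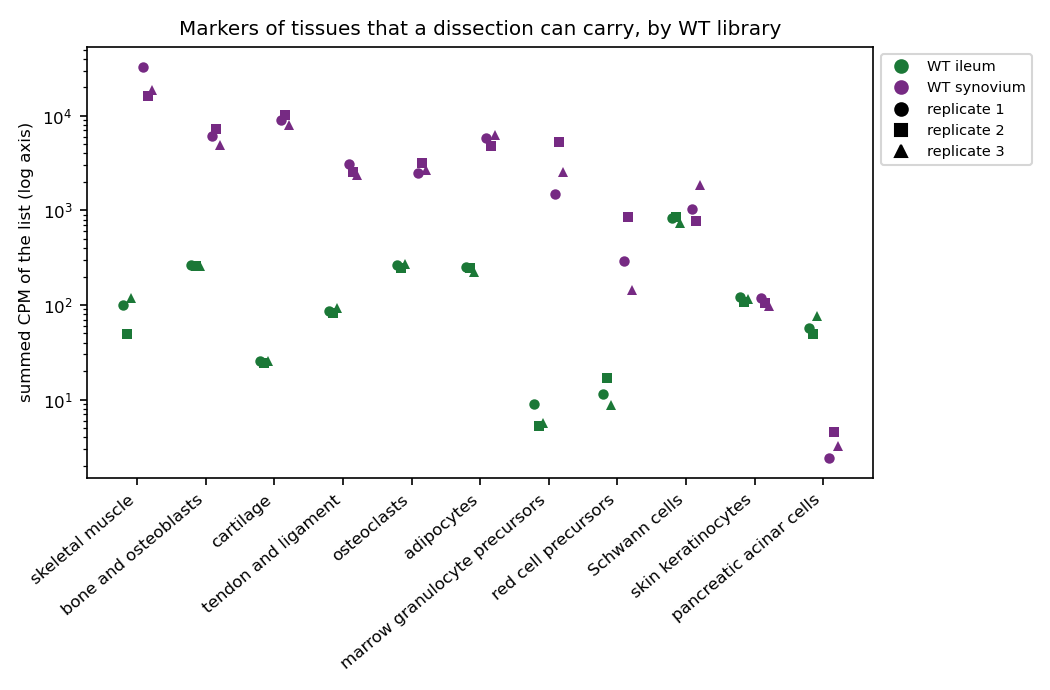
Summed CPM (vertical, log axis) of the marker lists of 11 tissues or cell types that a dissection can carry, with a point per library, green for WT ileum and purple for WT synovium, and the shape giving the replicate. Skeletal muscle sums to 16287 to 33191 CPM in synovium with replicate 1 highest, marrow granulocyte precursors to 1504 to 5328 CPM with replicate 2 highest, and Schwann cells to 779 to 1867 CPM with replicate 3 highest.

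Genes of vessels and macrophages were mostly higher in synovium. Of 15 endothelial genes 14 were higher in synovium, 2 of them at least 8-fold (median -2.29). Cdh5, the endothelial cadherin, had 156, 159 and 165 CPM against 24.2, 24.6 and 26.5 CPM (log2 fold change -2.67, SE 0.07, adjusted p = 1.53e-08). Prox1, the lymphatic factor, was on the ileum side with 10.5, 12.1 and 14.7 CPM against 7.56, 9 and 10.3 CPM (log2 fold change 0.47, SE 0.18, adjusted p = 0.0381), and its call was lost with library sizes alone (adjusted p = 0.174), with housekeeping factors (adjusted p = 0.301), in the fit of all 12 libraries (adjusted p = 0.103) and without ileum replicate 2 or 3 or synovium replicate 1 or 2 (adjusted p = 0.0594, 0.132, 0.0957 and 0.074). Of 20 tested macrophage genes 18 were higher in synovium, 5 at least 8-fold (median -1.97). The list summed to 2396, 2882 and 2708 CPM in synovium against 571 to 697 CPM in ileum. Synovium replicate 1 was the lowest for 14 and replicate 2 the highest for 10 of the 21 members detected there, and the marrow granulocyte list had the same order (1504, 5328 and 2530.0 CPM). The part of marrow in the macrophage levels was not tested. Vsig4, a complement receptor of tissue-resident macrophages, had 37.9, 35.6 and 42 CPM in synovium and 1 count in ileum, a ratio of 1857-fold (exact 95% interval 333 to 73379). Cd68, a lysosomal protein of macrophages, had 93, 105 and 99.9 CPM against 9.85, 8.17 and 10.8 CPM (log2 fold change -3.37, SE 0.12, adjusted p = 5.40e-08), and Folr2, a folate receptor of resident macrophages, 27, 28.2 and 29.8 CPM against 1.35, 0.789 and 0.619 CPM (log2 fold change -4.93, SE 0.23, adjusted p = 2.75e-07). Mertk, an engulfment receptor, was the 1 gene of the list higher in ileum (1.02, adjusted p = 7.90e-05). Of 10 dendritic cell genes 3 were higher in ileum and 5 in synovium (median -0.57), where 37.0% and 38.3% of all genes tested were.

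Lymphoid genes split by cell type. T cell and intraepithelial lymphocyte genes were higher in ileum in 13 of 18 tested (37.0% of all genes tested), 5 at least 8-fold, with a median of 1.43. Ileum replicate 2 was the lowest ileum library for all 18, and the list summed to 228, 163 and 227.5 CPM in ileum against 62.5 to 71.2 CPM in synovium. Gzmb, granzyme B, had 35.2, 21.7 and 28.7 CPM against 0.468, 0.317 and 0.444 CPM (log2 fold change 6.10, SE 0.27, adjusted p = 2.31e-07), and Itgae, the integrin CD103 that binds E-cadherin, 26.8, 20 and 28 CPM against 0.669, 1.39 and 1.96 CPM (log2 fold change 4.20, SE 0.31, adjusted p = 7.85e-06). Cd4 was higher in synovium, with 18.6, 24.2 and 21.5 CPM against 16.7, 12.4 and 14.3 CPM (log2 fold change -0.57, SE 0.15, adjusted p = 0.00791), a call lost in the fit of all 12 libraries (adjusted p = 0.158), while Cd8a was higher in ileum (3.08, adjusted p = 8.94e-06). B cell genes were all, 11 of 11, higher in synovium, 9 at least 8-fold, with a median of -3.70. Ms4a1, the surface protein CD20, had 19.5, 30 and 39.4 CPM against 0.539, 0.43 and 0.688 CPM (log2 fold change -5.72, SE 0.35, adjusted p = 2.73e-06), with replicate 1 lowest and replicate 3 highest. Rag1, which is active in lymphoid precursors of marrow, was at 7.89, 33 and 32.1 CPM in the same libraries and had no count in ileum, and it too was lowest in replicate 1. All 11 B cell genes were highest in synovium replicate 3. The 16 marrow granulocyte genes and the 11 red cell genes were instead all highest in replicate 2. Whether the B cell RNA came with marrow was not tested.

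Antibody genes separated by class. Of 14 tested genes of plasma cells and IgA transport 9 were higher in ileum (37.0% of all genes tested) and 4 in synovium (38.3%). The list summed to 14021, 10887 and 15357 CPM in ileum against 1290.0 to 2030 CPM in synovium, and ileum replicate 2 was the lowest ileum library for 14 of the 15 members detected. Igha, the constant region of IgA, had 4573, 3042 and 5213 CPM in ileum against 349, 164 and 285 CPM in synovium (log2 fold change 4.01, SE 0.35, adjusted p = 4.50e-05). Ighm, that of IgM, had 24.6, 13.5 and 24.4 CPM against 299.9, 363 and 442 CPM (log2 fold change -4.14, SE 0.28, adjusted p = 1.37e-05), and Ighg2b, an IgG class, 16.9, 11.8 and 13.9 CPM against 232, 95.1 and 318 CPM (log2 fold change -3.92, SE 0.52, adjusted p = 0.00108). IgA was thus higher in ileum and IgM and IgG2b in synovium. Pigr, the receptor that carries IgA across the epithelium, had 5266, 4929.6 and 5741 CPM against 1, 0.57 and 0.57 CPM (log2 fold change 12.85, SE 0.24, adjusted p = 3.19e-09).

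MHC class II genes were higher in ileum in 7 of 9 tested (37.0% of all genes tested), with a median of 1.36. With library sizes alone or housekeeping factors it was 6 of 9. Among them the call of Cd74 was lost without synovium replicate 1 or 2 (adjusted p = 0.0792 and 0.059) and without the filter on low counts (adjusted p = 0.0539). H2-Ab1 had 526, 236 and 570.4 CPM against 144, 135 and 175 CPM (log2 fold change 1.55, SE 0.34, adjusted p = 0.00606). Ileum replicate 2 lay between the other ileum libraries and the synovium libraries. The summed CPM of the list was 3275 and 3481 in ileum replicates 1 and 3, 1379 in replicate 2 and 953 to 1287 in synovium. H2-Ob, whose product restrains peptide loading in B cells, went the other way, with 2.63, 3.37 and 3.23 CPM against 18.2, 26.9 and 33.5 CPM (log2 fold change -3.09, SE 0.25, adjusted p = 9.65e-06).

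Chemokine ligands, the homing cues of leukocytes, were mostly on the ileum side by number of genes but not by summed CPM. Of 19 tested, 11 were higher in ileum (37.0% of all genes tested), 3 in synovium (38.3%) and 5 did not pass. The list summed to 964 to 1067 CPM in ileum against 2257 to 2560 CPM in synovium. Ccl25, which draws gut-homing lymphocytes through CCR9, had 275, 277 and 304 CPM against 2.14, 3.11 and 2.53 CPM (log2 fold change 6.77, SE 0.13, adjusted p = 4.05e-09). Ccl28, which draws IgA plasma cells, had 105, 112 and 126 CPM against 0.936, 0.824 and 1.71 CPM (log2 fold change 6.62, SE 0.21, adjusted p = 5.24e-08). The 3 on the synovium side were Cxcl12, Cxcl14 at 406, 410.1 and 354 CPM against 26.6, 22.5 and 25.7 CPM (log2 fold change -3.97, SE 0.11, adjusted p = 1.57e-08) and Ccl9 (-0.98, adjusted p = 4.56e-05). Ccl19 and Ccl21a, which have near-identical copies, were at 0 in every library. Among 18 complement genes 14 were higher in synovium, among them Cfd, a protease of the alternative pathway that fat cells secrete, at 836, 839.7 and 919 CPM against 21.8, 11.8 and 16 CPM (log2 fold change -5.71, SE 0.24, adjusted p = 4.36e-07), while Cfb, its substrate, was higher in ileum (2.56, adjusted p = 6.88e-05).

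Tnf itself, the gene altered in the diseased strain, was low in both healthy tissues. It had 2.56, 1.36 and 1.58 CPM in ileum and 2.07, 1.96 and 1.84 CPM in synovium, with a log2 fold change of -0.09 and a 95% interval of -0.79 to 0.61 (adjusted p = 0.8). The interval does not exclude a difference in either direction. Of 15 tested genes of TNF signalling 5 were higher in ileum, 6 in synovium and 4 did not pass, with a median of -0.09. Those counts lie near the shares of all genes tested, 37.0% in ileum and 38.3% in synovium, and say nothing particular about the list. Tnfrsf1a, the broadly made TNF receptor, had 168, 142 and 143 CPM against 171, 175 and 157 CPM and did not pass (adjusted p = 0.148), and Tnfrsf1b, the receptor of leukocytes and endothelium, was higher in synovium with 85, 104 and 104 CPM against 33.1, 27.5 and 31.8 CPM (log2 fold change -1.66, SE 0.11, adjusted p = 2.55e-06). Tnfaip3, a feedback inhibitor of NF-kB, was higher in ileum with 74.5, 52.8 and 70.4 CPM against 21.3, 24.3 and 23.9 CPM (log2 fold change 1.51, SE 0.14, adjusted p = 1.81e-05). Of 10 tested genes of regulatory T cells 2 were higher in each tissue and 6 did not pass (median -0.02). Foxp3, which defines these cells, was near the limit of detection, with 1.08, 0.43 and 0.55 CPM against 0.201, 0.824 and 0.824 CPM (adjusted p = 0.822).

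Several gene families had different members in the 2 tissues. Lyz1 was the lysozyme of ileum, while Lyz2, that of macrophages and granulocytes, had 794, 1118 and 957 CPM in synovium against 129.6, 94.4 and 94.5 CPM in ileum (log2 fold change -3.17, SE 0.18, adjusted p = 1.46e-06). Their genes lie side by side on chromosome 10, and the 150 bases before the annotated starts are printed since they are nearly the same while the tissues of the genes differ. Of 150 bases 134 (89.3%) were identical in the alignment, against 51.3% for Alpi and Alpl and 47.3% for Fabp2 and Fabp6 aligned in the same way. Capitals mark bases that differ between both genes or have no partner. The windows are chr10:117292869-117293018, minus strand for Lyz1 and chr10:117282273-117282422, minus strand for Lyz2.
Lyz1: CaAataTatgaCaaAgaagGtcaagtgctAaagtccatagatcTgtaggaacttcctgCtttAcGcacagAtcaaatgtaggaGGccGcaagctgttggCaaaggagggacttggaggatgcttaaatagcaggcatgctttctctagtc
Lyz2: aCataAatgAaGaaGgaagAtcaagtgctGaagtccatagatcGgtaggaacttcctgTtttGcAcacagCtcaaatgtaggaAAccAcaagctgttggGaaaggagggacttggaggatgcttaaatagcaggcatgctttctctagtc
Reads of these near-identical genes can be assigned to the wrong copy, so the low value of each in the other tissue is uncertain.

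Mast cell chymases gave a second case on chromosome 14. Mcpt1, a chymase of mucosal mast cells, had 2.83, 3.37 and 2.06 CPM in ileum and no count in synovium, at least 38.2-fold higher. Mcpt4, a chymase of connective tissue mast cells, had 7.69, 7.35 and 10.9 CPM in synovium and 0.0674, 0.0717 and 0.138 CPM in ileum (log2 fold change -6.43, SE 0.37, adjusted p = 1.05e-06). Of the 150 bases before the start, 132 (88%) were identical. The windows are chr14:56017814-56017963, plus strand for Mcpt1 and chr14:56062311-56062460, minus strand for Mcpt4, with differing or unpaired bases in capitals.
Mcpt1: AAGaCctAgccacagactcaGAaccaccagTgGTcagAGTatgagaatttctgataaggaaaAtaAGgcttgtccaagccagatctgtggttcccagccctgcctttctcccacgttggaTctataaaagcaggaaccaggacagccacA
Mcpt4: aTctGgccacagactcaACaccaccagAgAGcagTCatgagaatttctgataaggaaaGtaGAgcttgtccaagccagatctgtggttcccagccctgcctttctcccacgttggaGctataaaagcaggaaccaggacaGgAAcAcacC
Both genes were low, and the mast cell list as a whole had 9 of 11 tested genes higher in synovium and 2, Mcpt1 and Mcpt2, higher in ileum. These pairs were chosen after the values had been seen.

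Enzymes and binding proteins of metabolism were exchanged in the same manner. Alpi was at 307, 339 and 280.4 CPM in ileum and at 0 in synovium, while Alpl, the alkaline phosphatase that mineralises bone, had 570.4, 566 and 356 CPM in synovium against 5.93, 4.09 and 4.75 CPM in ileum (log2 fold change -6.65, SE 0.26, adjusted p = 4.56e-07). The mitochondrial creatine kinase Ckmt1 had 591, 553 and 539.8 CPM against 0.468, 0.57 and 0.634 CPM (log2 fold change 9.95, SE 0.13, adjusted p = 1.60e-09), and its muscle counterpart Ckmt2 0, 0.574 and 0.0688 CPM against 66.6, 29.3 and 33.8 CPM (log2 fold change -7.64, SE 0.74, adjusted p = 0.000136). Fabp4, the binding protein of fat cells, stood at 749.7, 681 and 1000.1 CPM in synovium against 34.5, 27.7 and 25.6 CPM in ileum (log2 fold change -4.79, SE 0.20, adjusted p = 2.28e-07), opposite to Fabp2 and Fabp6. The muscle forms Ckmt2, Acta1 and Ckm were highest in synovium replicate 1, as the muscle markers were.

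Adhesion and cytoskeletal families did likewise. E-cadherin, Cdh1, had 1117, 1123 and 1013 CPM against 2.74, 2.22 and 3.55 CPM (log2 fold change 8.57, SE 0.19, adjusted p = 5.89e-09), whereas Cdh11, the cadherin of synovial fibroblasts, had 314, 345 and 264 CPM against 27.4, 26.5 and 31.1 CPM (log2 fold change -3.44, SE 0.12, adjusted p = 6.68e-08) and Cdh13, a cadherin without a cytoplasmic tail, 252, 201 and 228 CPM against 9.71, 11.5 and 8.87 CPM (log2 fold change -4.50, SE 0.13, adjusted p = 2.43e-08). Cdh3, P-cadherin, did not pass in either direction (adjusted p = 0.238). Pls1, the plastin that bundles actin in microvilli, had 1139.5, 1091 and 1186 CPM against 0.87, 2.54 and 1.39 CPM (log2 fold change 9.46, SE 0.33, adjusted p = 2.31e-07), and Lcp1, the plastin of leukocytes, 85.8, 56.9 and 70.5 CPM against 220.1, 342 and 283 CPM (log2 fold change -1.98, SE 0.20, adjusted p = 8.65e-05). Among glucose transporters Slc2a1 did not pass, with 31.9, 38.6 and 33 CPM against 33.4, 30.9 and 36.4 CPM (adjusted p = 0.749), and Slc2a4, the insulin-responsive form of muscle and fat, was higher in synovium (-1.74, adjusted p = 2.38e-05).

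**Figure D4:**
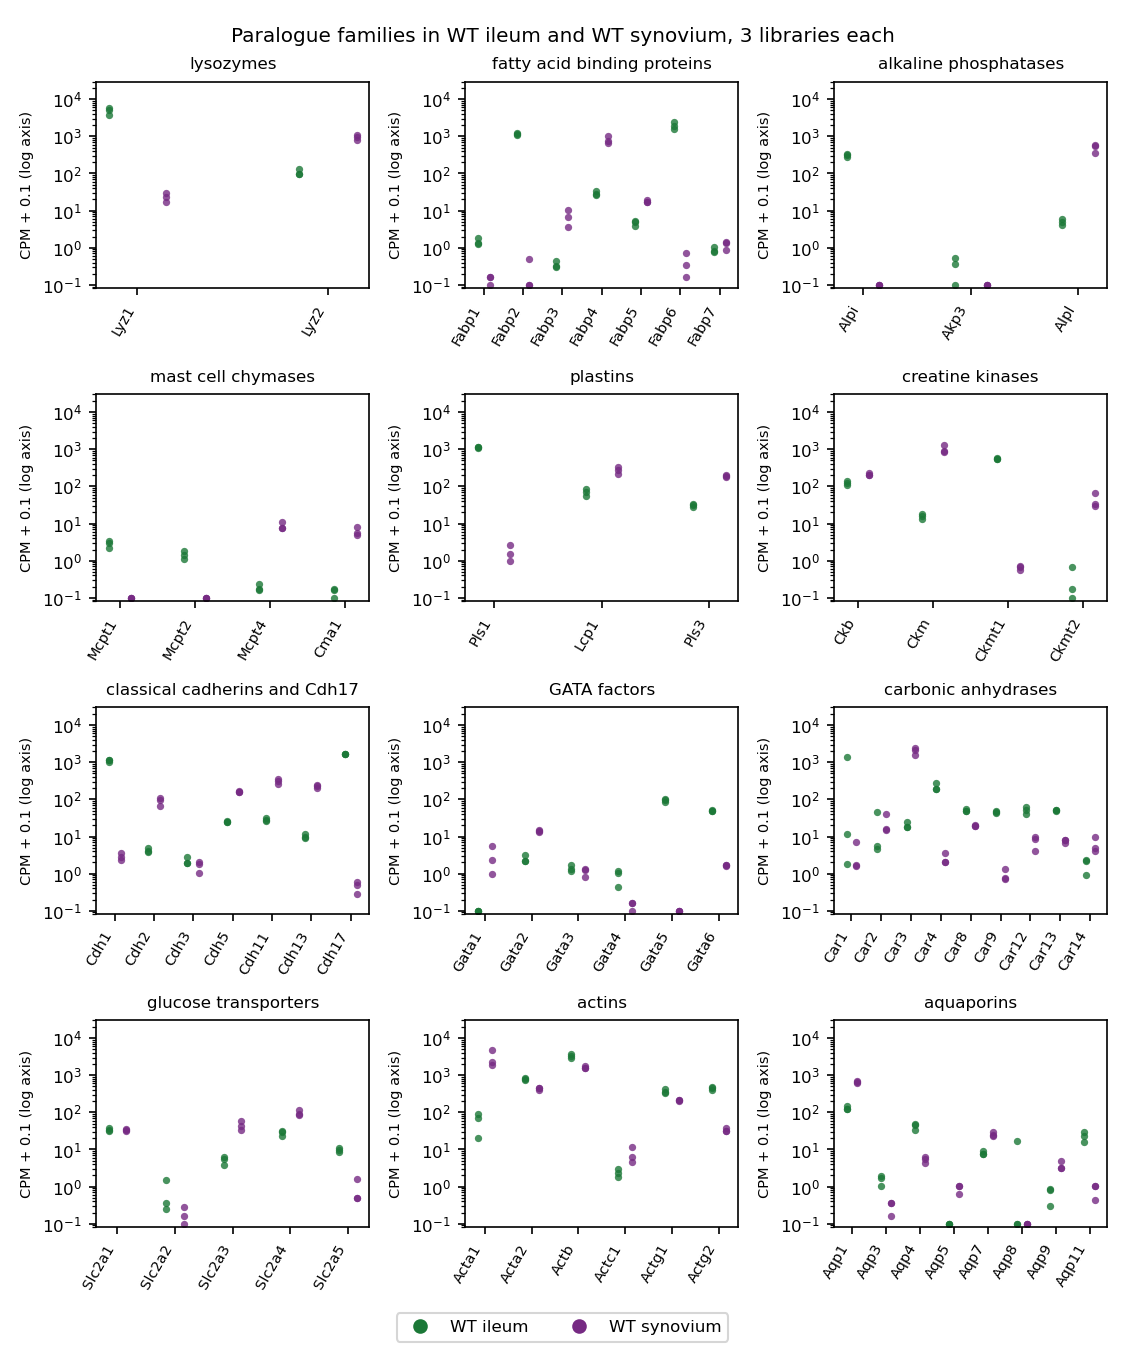
CPM + 0.1 (vertical, log axis) of the members of 12 gene families in WT ileum (green) and WT synovium (purple), 1 point per library, 3 libraries per tissue. In the lysozyme, alkaline phosphatase, chymase, plastin and creatine kinase panels at least 1 member is higher in each tissue; Car1 and Aqp8 have 1 ileum library, replicate 2, far above the other 2.

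Hox genes, which encode position along the body axis, separated by cluster. Of 32 tested of 39, 11 were higher in ileum (37.0% of all genes tested), 18 in synovium (38.3%) and 3 did not pass. All 8 tested genes of the Hoxb cluster were higher in ileum: Hoxb6 had 71.3, 75.1 and 64.5 CPM against 2.47, 2.92 and 3.23 CPM (log2 fold change 4.61, SE 0.13, adjusted p = 1.77e-08) and Hoxb9 68, 75.4 and 73.8 CPM against 4.35, 2.85 and 3.87 CPM (log2 fold change 4.29, SE 0.15, adjusted p = 5.54e-08). The posterior members of the Hoxa cluster were at least 8-fold higher in synovium. Hoxa10 had 38, 30 and 32.7 CPM against 0.405, 1 and 0.344 CPM (log2 fold change -5.84, SE 0.29, adjusted p = 5.03e-07), Hoxa11 had 35.1, 29.2 and 28.5 CPM and 1 count in ileum, a ratio of 1489.6-fold (exact 95% interval 267 to 58875), and Hoxa13 had 21.7, 17.9 and 17.9 CPM and none in ileum, at least 307-fold higher. Hoxc genes changed side along the cluster, with Hoxc8 higher in ileum (2.35, adjusted p = 3.58e-05) and Hoxc10 higher in synovium (-3.46, adjusted p = 1.22e-05). Hoxc4 did not pass (adjusted p = 0.771).

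Other factors of limb and connective tissue were higher in synovium in 18 of 19 tested, 15 at least 8-fold, with a median of -5.01. Prrx1, a homeobox factor of limb mesenchyme, had 309.6, 258 and 269 CPM against 1.62, 1.79 and 1.86 CPM (log2 fold change -7.31, SE 0.12, adjusted p = 2.49e-09). Tbx15 had 172, 112 and 120.1 CPM against 0, 0.143 and 0.138 CPM (log2 fold change -10.39, SE 0.39, adjusted p = 3.33e-07), and Tbx4, a hindlimb factor, 22, 19.6 and 16 CPM against 0.135, 1 and 0.206 CPM (log2 fold change -5.42, SE 0.48, adjusted p = 3.17e-05). Tbx5, its forelimb counterpart, had 38 counts over the synovium libraries and was not tested. The exception was Osr2, a zinc finger factor, with 129, 135 and 114 CPM in ileum and 16.5, 11.8 and 13.8 CPM in synovium (log2 fold change 3.17, SE 0.13, adjusted p = 1.60e-07).

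**Figure D5:**
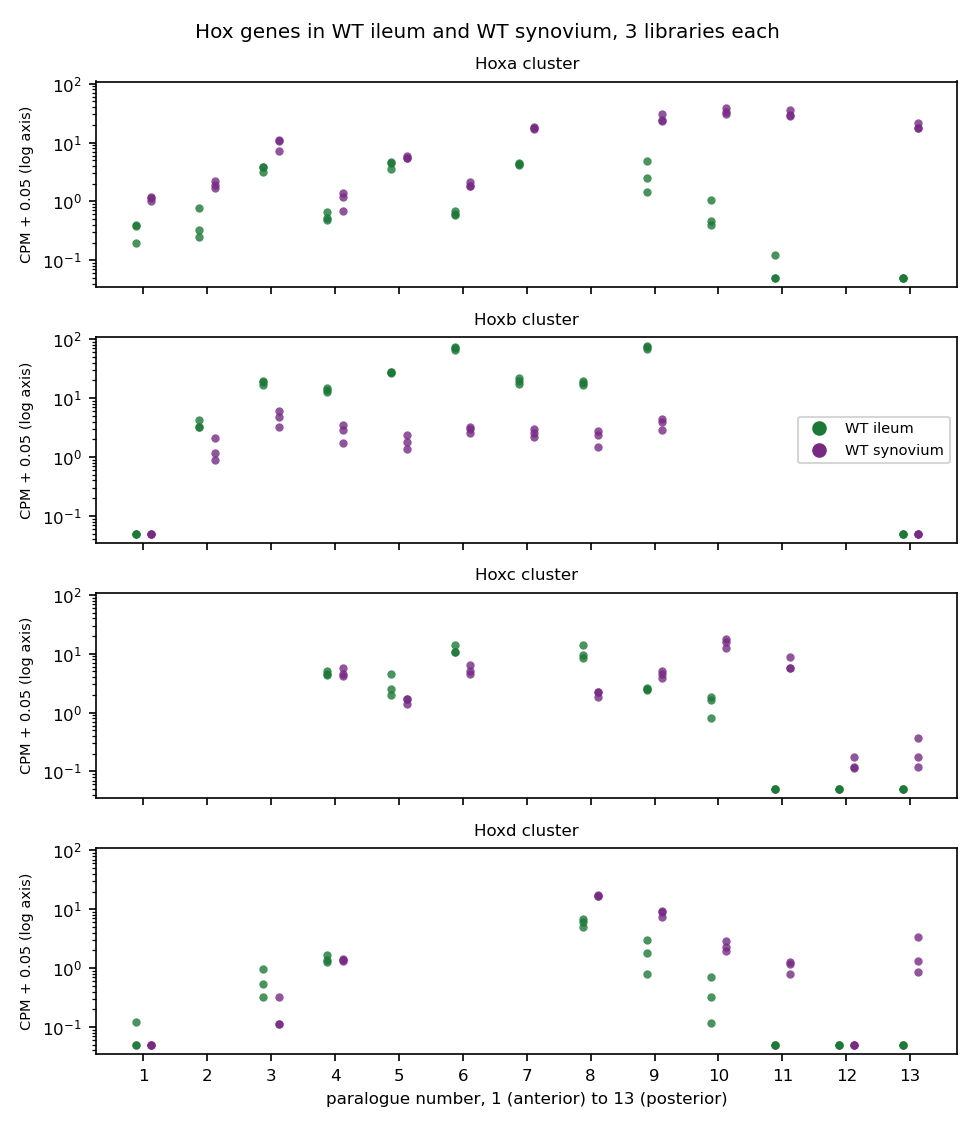
CPM + 0.05 (vertical, log axis) of the Hox genes by paralogue number (horizontal, 1 anterior to 13 posterior), 1 panel per cluster, in WT ileum (green) and WT synovium (purple), 3 libraries each. Hoxb2 to Hoxb9 lie higher in ileum, and in the Hoxa and Hoxd clusters the synovium points stand above from paralogue 9 on, with ileum at or near 0 at paralogues 11 and 13.

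Some of the genes restricted to a tissue lay next to each other. Of 1295 placed genes at least 8-fold higher in ileum, 490 (37.8%) had an adjacent tested gene of the same kind, where 14.8% of all 16238 placed genes had one. Of 1385 at least 8-fold higher in synovium 439 (31.7%) had one of their kind, where 15.8% of all did. The longest run in ileum was 21 consecutive tested genes on chromosome 8 (chr8:21025545-22060305, GRCm38), which begins with the alpha-defensin Defa21, holds further alpha-defensins with some of their pseudogenes and predicted genes, and ends with Atp7b, a copper transporter. The longest run in synovium was 8 genes from Myh3 to Myh8 on chromosome 11 (chr11:67078300-67308634), and 5 genes lay in a row on chromosome 5, namely Dmp1, Ibsp, Mepe and Spp1, which encode bone matrix proteins, and the predicted gene Gm42793.

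Genes of the cell cycle were higher in ileum, though by less than the epithelial genes. Of 21 cell cycle genes 20 were higher in ileum, none of them 8-fold, with a median of 1.74, and the other, Rrm2, did not pass. Top2a, the topoisomerase of dividing cells, had 259.6, 251 and 268 CPM against 34.6, 78.3 and 61.9 CPM (log2 fold change 2.15, SE 0.28, adjusted p = 0.000534), and Mki67 294, 340.3 and 323 CPM against 48, 131 and 93.3 CPM (log2 fold change 1.81, SE 0.36, adjusted p = 0.00424). Among the synovium libraries replicate 2, which had the largest sum of marrow granulocyte markers, was the highest for 19 of the 21 genes and replicate 1 the lowest for all 21. The part of marrow in these levels was not tested.

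Genes used by every cell differed less. Of 16 housekeeping genes 9 were higher in ileum (37.0% of all genes tested), 2 in synovium (38.3%) and 5 did not pass (median 0.27). Of 14 proteasome genes 12 were higher in ileum and 2 did not pass (median 0.49). Of 7 tested mitochondrially encoded genes 2 were higher in ileum (median -0.02), and of 12 immediate early and heat shock genes 1 was higher in ileum and 3 in synovium (median 0.08). Synovium replicate 1 had the largest sum of the latter list, 2036 CPM against 465 and 657 CPM in the other synovium libraries, and was the highest for 10 of the 12 genes. Without that library Fos, an immediate early transcription factor, passed the test towards ileum (log2 fold change 2.02, adjusted p = 0.00704). With housekeeping factors 5 housekeeping genes were higher in ileum and 3 in synovium (median 0.02), so no direction is drawn for that list, nor for the mitochondrial and immediate early lists, whose medians were -0.26 and -0.15 with these factors. Of the proteasome genes 9 of 14 were higher in ileum and none in synovium under these factors (median 0.25), as with library sizes alone (9 of 14, median 0.34).

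A minority of genes had a difference bounded near 0. For 2517 genes, 15.5% of those tested, the 95% interval of the log2 fold change lay within -0.5 and 0.5. Among the most abundant of these, Tmsb4x, which binds actin monomers, had 894, 761 and 863 CPM against 776, 906 and 919 CPM, an interval of -0.29 to 0.20. Tpt1, the translationally controlled tumour protein, had 866, 898 and 831 CPM against 812, 754 and 774 CPM, an interval of -0.04 to 0.34, and Fth1, the ferritin heavy chain, 888, 938 and 876 CPM against 1056, 948 and 1086 CPM, an interval of -0.40 to 0.01. These intervals hold for TMM scaling. With housekeeping factors Tmsb4x and Fth1 passed the test towards synovium (-0.30, adjusted p = 0.0356, and -0.44, adjusted p = 0.00301). From the authors' FPKM values with a pseudocount of 1, Tpt1 turned to synovium (-0.25, adjusted p = 0.0116). With these values Tmsb4x was at -0.40 (adjusted p = 0.00773) and Fth1 at -0.85 (adjusted p = 0.000742), beyond the limit of -0.5. Fth1 also passed with library sizes alone (-0.35), with limma-voom (-0.19) and without synovium replicate 2 (-0.25). Tpt1 passed towards ileum with DESeq2 (adjusted p = 0.0345) and limma-voom (adjusted p = 0.0451).

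The healthy tissue difference was not fixed across genotypes. In a fit of all 12 libraries the gap between ileum and synovium differed between WT and TNFdARE mice for 2050 of 16964 genes (12.1%), towards ileum for 1154 and towards synovium for 896. The number of genes moved with single libraries. It was 3506 without ileum TNFdARE replicate 2, 1025 without ileum TNFdARE replicate 3, and 1015 without synovium TNFdARE replicate 3. Without ileum WT replicate 1, 2 or 3 it was 1219, 1290 or 1182, and without synovium WT replicate 3 it was 1171. DESeq2 gave 3193 genes. By list, 10 of 14 adipocyte genes and 6 of 11 B cell genes shifted towards ileum (median interaction 1.44 and 3.94 on the log2 scale), and 9 of 21 cell cycle genes shifted towards synovium (-1.20). Of the tissues that a dissection can carry, the median interaction was 1.64 for skeletal muscle (2 of 20 genes passed, towards ileum), 1.27 for marrow granulocyte precursors (3 of 16), 0.91 for cartilage (1 of 17) and 0.91 for bone (2 of 16 towards ileum and 1 towards synovium). Their part in the interaction was not tested.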

How the data were processed

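Poly-A RNA from ileum and ankle synovium was sequenced as single reads with a stranded mRNA kit, per the labels' protocols. Per the submitters' processing notes, cutadapt 1.15 and Bowtie2 2.3.3.1 were used with the mouse build GRCm38. Which program counted reads, and with which annotation, is not given in the sources used here. Deposited by the authors were a table of raw counts per gene and a table of FPKM, fragments per kilobase per unit of depth, whose scaling is not stated. The deposited FPKM table held no 0 although 2976 of its values in the WT libraries belong to counts of 0, and in 457 genes all 3 ileum libraries had 1 FPKM value. It was used only as an alternative, on log2(FPKM + 1) or log2(FPKM + 0.1).

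Counts were scaled by TMM, filtered with filterByExpr and tested with edgeR 4.0.16 (quasi-likelihood, robust) in R 4.3.3, with Benjamini-Hochberg adjustment over all 16287 genes and a threshold of 0.05. All log2 fold changes are ileum over synovium. SE is the fold change divided by the root of F, and RPKM divides CPM by exon length in kilobases. Alternatives were DESeq2 1.42.0, limma 3.58.1, other scalings and filters, all 12 libraries, a replicate block and leaving out each library. The steps were also run on simulated counts in which few genes differed, and by small folds. Most genes differ between these tissues, so that run does not test the scaling used here. Symbols and positions came from an annotation of GRCm38 and promoter windows from RefSeq. Bounds replace a group's 0 by 3 counts, and other ratios of few counts have exact 95% intervals. These bounds and exact intervals cover counting error only, and the reads carry no molecular identifiers. The 95% intervals of log2 fold changes come from the edgeR fit and include the spread between libraries.

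The members of the comparison and the 47 lists were chosen with earlier results of these data known. The genes named by rule were, per direction, the 12 largest fold changes with a mean of at least 32 CPM and no overlap, the 10 most abundant per length in each tissue, from each list the 2 calls lowest in adjusted p and the most abundant gene, all members of 13 paralogue families, the 5 most abundant genes with an interval within -0.5 and 0.5, Tnf and Foxp3, and 5 per direction for the interaction. Further members were named after their values had been seen. Replicate numbers were not treated as pairs, since the labels do not say that both tissues came from 1 mouse. Deviations from the tissue means correlated by 0.018, 0.047 and 0.067 between same-numbered libraries over 11293 genes. Weak correlations between different organs cannot decide whether the numbers are pairs.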

Additional observations from a re-analysis of the deposited data

Results flagged for a closer look

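For 10 genes, 5 in each direction with the smallest adjusted p and a proper symbol, the gap between ileum and synovium differed between TNFdARE and WT mice by a direct test in edgeR over all 12 libraries. CPM values here are scaled over the 12 libraries, and the differences are on the log2 scale. No cause was tested for any of them.

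Of the 5 genes whose gap moved towards ileum, Mmp9, a gelatinase of neutrophils and osteoclasts, moved by 4.43 (SE 0.39, adjusted p = 0.000417). It had 8.04, 5.33 and 7.81 CPM in WT ileum and 147, 84.8 and 105 CPM in TNFdARE ileum, while synovium had 995, 1377 and 1050.3 CPM in WT and 566, 1007 and 953 CPM in TNFdARE. Pla1a, a phospholipase, moved by 3.08 (SE 0.22, adjusted p = 0.000246), with 72.6, 73.5 and 81.3 CPM in WT synovium and 15.4, 15.8 and 15.5 CPM in TNFdARE synovium. Scara3, a scavenger receptor, moved by 1.98 (SE 0.17), and Lama3, a laminin chain of epithelial basement membrane, by 1.97 (SE 0.17), the latter with 123, 174 and 130 CPM in WT ileum and 355, 359 and 366 CPM in TNFdARE ileum. Gprc5c moved by 1.68 (SE 0.16, adjusted p = 0.000665).

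The other 5 moved towards synovium. Cx3cl1, the membrane-bound chemokine fractalkine, moved by -2.70 (SE 0.18, adjusted p = 0.000206), from a gap of 2.61 in WT to -0.08 in TNFdARE. Its synovium values were 23.1, 19.1 and 22.4 CPM in WT and 137, 129 and 102 CPM in TNFdARE. Cyp2s1, a cytochrome P450, moved by -3.92 (SE 0.29), with 2.7, 2.74 and 2.94 CPM in WT synovium and 33.9, 39.7 and 27 CPM in TNFdARE synovium. Il13ra1, a receptor chain for interleukin 13, moved by -1.68 (SE 0.13), and Rbm47, an RNA-binding protein of epithelia, by -1.41 (SE 0.12). Cdh1 moved by -2.34 (SE 0.20, adjusted p = 0.000349), with 2.84, 2.28 and 3.66 CPM in WT synovium and 12.8, 15.1 and 14 CPM in TNFdARE synovium.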

How the results depend on the processing

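The numbers of genes higher in ileum and in synovium stayed within 1.5 times the main count under all 17 alternatives, as did the 8-fold counts except with FPKM and a pseudocount of 1, which gave 702 genes for ileum and 456 for synovium with and without a minimum mean FPKM of 1. The pseudocount limits the fold of low genes by its construction. Leaving out each WT library gave 5745 to 6015 genes for ileum, 5950 to 6239 for synovium, and 1327 to 1376 and 1406 to 1479 at 8-fold. The interaction gave 3193 genes with DESeq2 and 1015 to 3506 with each of the 12 libraries left out, and the cause was not tested. Directions turned for Actb with FPKM (-0.14), Tpt1 with FPKM (-0.25) and Rps3a1 with FPKM (-0.33) and with housekeeping factors (-0.07).

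With the replicate number as a block, 5954 and 6124 genes were called, 1307 and 1384 at 8-fold, and 1955 for the interaction. Whether the numbers are pairs is not known. Each library correlated best, though weakly, with its own number in the other tissue, and the apparent sex of each number was the same in both tissues. The block lost the calls of Slc46a1 (adjusted p = 0.061), Kit (0.0518), mt-Nd6 (0.0601) and Rps3a1 (0.0727) and gained that of Car1 (0.0389).

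With 3 libraries per tissue the p-values rest on few samples. Markers of neighbouring muscle, bone, cartilage and marrow vary between synovium libraries, and ileum replicate 2 differs from the others. Those of fat, which is also part of the sublining, vary less than those of muscle. Fold changes of genes at 0 in a tissue depend on the prior count and are given as bounds.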

Other observations

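Ileum replicate 2 differed from both other ileum libraries in genes beyond those compared above, given here as values chosen after they had been seen. Cyp2c55, a cytochrome P450, had 85.1, 647 and 92.8 CPM in the ileum libraries, Reg4, a lectin of secretory cells, 149.8, 418 and 154 CPM and Aqp8, a water channel, 0, 17.2 and 0 CPM, each highest in replicate 2. Nos2, the inducible nitric oxide synthase, had 717, 241 and 638 CPM, Duox2, which makes hydrogen peroxide at the epithelial surface, 1170.2, 612 and 952 CPM, Saa1, a serum amyloid, 628, 236 and 366 CPM and Ido1, a tryptophan-degrading enzyme, 40.1, 16.4 and 37.8 CPM, each lowest in replicate 2. Fxyd4, an ion pump subunit known from colon, had no count in any library.

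Synovium replicate 1 stood further apart in some muscle genes than in the sum of muscle markers. Ankrd1, a muscle gene known to respond to stretch and injury, had 123, 1.52 and 3.87 CPM in the synovium libraries, Csrp3, a muscle LIM protein, 679.7, 41.6 and 53.9 CPM, Xirp1, a relative of Xirp2, 651, 24.3 and 47.2 CPM and Flnc, the muscle filamin, 2446, 164 and 224 CPM. Replicate 1 was more than 10 times the next library for each of these, while the sum of muscle markers was 33191 CPM against 18876 CPM. Slow-fibre genes were also highest there, with Myl2, a slow myosin light chain, at 178, 19.6 and 75.2 CPM and Tnnt1, the slow troponin T, at 280.1, 32 and 85.2 CPM.

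Genes of early blood cells were found in synovium and hardly in ileum. Dntt, the enzyme that adds bases during antigen receptor assembly in lymphoid precursors, had 2.74, 10.4 and 10.7 CPM in synovium, and Vpreb1, part of the pre-B cell receptor, 1.47, 5.64 and 5.89 CPM. Epx, the eosinophil peroxidase, had 5.55, 46.1 and 35.4 CPM, Prg2, the eosinophil major basic protein, 21.8, 157 and 114 CPM and Ppbp, a platelet chemokine, 8.83, 61.6 and 28.1 CPM. All 5 were lowest in replicate 1, which was also lowest for the marrow granulocyte genes.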
